A study of Mus musculus with 6 samples.

Results

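The 10 genes described here encode the cyclins, kinases and kinase inhibitors that act in the G1 phase of the cell cycle: the D-type cyclins Ccnd1, Ccnd2 and Ccnd3, the E-type cyclins Ccne1 and Ccne2, the kinases Cdk4 and Cdk6, and the CIP/KIP inhibitors Cdkn1a, Cdkn1b and Cdkn1c. They were chosen by gene symbol, and all 10 were found among the 23337 genes of the deposited table. The RNA came from basal cell carcinoma cells of the ear epidermis of mice, taken 6 weeks after tamoxifen, which had been given to animals 4 weeks old. The Ko group (3 libraries) had the genotype R26-SmoM2/+ Yapfl/fl K14CreER and the Wt group (3 libraries) had R26-SmoM2/+ K14CreER. Both groups therefore carried SmoM2, an activated form of the Hedgehog transducer Smoothened, and a tamoxifen-inducible Cre driven by the keratin 14 promoter of basal keratinocytes. Yap was deleted in those cells in the Ko group only, so other cells in a sample would keep it. The labels do not say whether a library came from 1 animal or a pool, so the p-values rest on the spread of the libraries, which may be technical.

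D-type cyclins bind and activate CDK4 and CDK6, which begin the phosphorylation of the retinoblastoma protein. E-type cyclins activate CDK2, which completes it, and E2F factors then switch on the genes of DNA replication. The CIP/KIP proteins p21 (Cdkn1a), p27 (Cdkn1b) and p57 (Cdkn1c) bind these complexes and inhibit CDK2 above all. In epidermis the D-type cyclins are known for driving basal keratinocytes into the cycle, and p21 and p57 for being induced as keratinocytes leave it. Ccnd1 and Ccnd2 are also known targets of Hedgehog signalling.

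Reads assigned to genes ran from 15405490 to 25260431 per library, and single members had between 50 and 14474 reads in a library. The deposited values are normalized counts, read counts divided by a size factor for each library. Yap1 had 591, 773 and 1764 normalized counts in Ko libraries 1 to 3, against 5765, 6004 and 5573 in Wt libraries 1 to 3, so the third Ko library kept the most Yap1 (log2 difference −2.63; adjusted p = 0.517 in limma and 1.4e-07 in DESeq2). Libraries 1 and 2 of each group carry sample codes beginning with DM22 and library 3 a code beginning with DM24; the female transcript Xist had 58654 (Ko) and 59594 (Wt) normalized counts in library 3 of each group and 8.62 to 15.1 elsewhere. Sex, depth and whatever else the codes mark cannot be told apart, so values of each library and of the same-numbered pairs are given throughout. The basal markers Krt5, Krt14, Itga6, Col17a1 and Trp63 were high in every library, at summed levels of 483930 to 531212 normalized counts in Ko and 443621 to 651484 in Wt. The 6 immune markers summed to 269 to 527 normalized counts in Ko and 85.8 to 426 in Wt, nearly all of it Cd74, and the pan-leukocyte marker Ptprc lay between 0 and 3.36. The 6 suprabasal markers summed to 24848, 30590 and 103378 normalized counts in Ko libraries 1 to 3, against 28380, 36436 and 45749 in Wt, a sum carried mostly by Krt1 and Krt10. The third Ko library was highest for Krt1, Krt10 and Krtdap, lowest of all for Lor and below the third Wt library for Ivl and Sbsn.

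Promoter windows from RefSeq (GRCm38.p6) were found for Ccnd3, Ccne1, Cdk4, Cdk6, Cdkn1a and Cdkn1b, 8 windows in all, while those of Ccnd1, Ccnd2, Ccne2 and Cdkn1c were not used here. The sequences shown are those of Cdk6 and of the downstream Ccnd3 start, since these are the members with a window that lay lower in Ko in all 3 pairs. Each is the 250 bases before the annotated start, on the plus strand, and capitals mark the TEAD core letters GGAATG, here on the opposite strand as CATTCC; the Cdk6 window holds none.
Cdk6, chr5:3343643-3343892: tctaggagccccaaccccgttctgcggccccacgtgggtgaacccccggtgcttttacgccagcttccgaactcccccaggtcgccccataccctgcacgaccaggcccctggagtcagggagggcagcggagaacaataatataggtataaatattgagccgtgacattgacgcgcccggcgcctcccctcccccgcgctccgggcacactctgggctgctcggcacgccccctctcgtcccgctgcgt
Ccnd3, chr17:47593217-47593466: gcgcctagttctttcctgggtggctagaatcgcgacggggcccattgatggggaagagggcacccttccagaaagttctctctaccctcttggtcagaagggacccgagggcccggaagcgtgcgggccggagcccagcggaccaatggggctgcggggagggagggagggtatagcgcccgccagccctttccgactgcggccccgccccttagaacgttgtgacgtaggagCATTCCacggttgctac
The letters GGAATG were found in 1 of the 8 windows, this Ccnd3 window, and in 14.66% of 32851 RefSeq promoter windows of the same length (250 bases before the start and 50 after). The GLI letters TGGGTGGTC, the AP-1 letters TGANTCA and the E2F letters TTTGGCGC or TTTCGCGC, searched on both strands, were found in 0 of the 8 windows, against 0.25%, 7.81% and 0.81% of all windows. A match is only a run of letters and does not show that a factor binds there.

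Scaled to exon length, the G1 genes formed 2 tiers of expression in both genotypes. Cdk4, Ccnd1, Ccnd2, Cdkn1a and Cdkn1b made up the upper tier, and Ccne1, Ccnd3, Cdkn1c, Ccne2 and Cdk6 the lower one. Cdk4 was highest, at 1637 ± 83.7 normalized counts per 1000 exon bases in Ko and 1693 ± 46.9 in Wt (SD, n = 3 each). Ccnd1 came next with 1178 ± 136 in Ko and 1382 ± 138 in Wt (SD, n = 3 each), and in both groups all its libraries lay below those of Cdk4. Ccnd2, Cdkn1a and Cdkn1b followed, at means of 836, 838 and 580 normalized counts per 1000 exon bases in Ko and 938, 676 and 659 in Wt. Neighbours in this order overlapped, so at the exon lengths used the ranks of these 3 do not differ beyond the spread of the libraries. In both groups the libraries of Ccnd1 and Ccnd2 overlapped. A gap then separated Cdkn1b from Ccne1 (120 ± 34.7 in Ko, 138 ± 19.5 in Wt; SD, n = 3 each), and their ranges did not overlap in either group. Ccne1 and Ccnd3 overlapped in both groups. Cdk6 was lowest by mean in both, at 35.0 ± 1.48 in Ko and 46.3 ± 6.43 in Wt (SD, n = 3 each), although its libraries overlapped those of Cdkn1c in both groups. Exon length was the union of all annotated exons (GENCODE M21), which can lower the scaled level. For Cdk6 the union was 13989 bases, against 11525 in its longest transcript. Ccnd3 was affected more, with 8775 bases against 3858, so its place beside Ccne1 depends on this choice of length. Cdkn1a had 3553 bases against 2080, while Cdkn1b had 4552 by either length. The overlap of Cdkn1a with Cdkn1b therefore depends on this choice too.

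**Figure D1:**
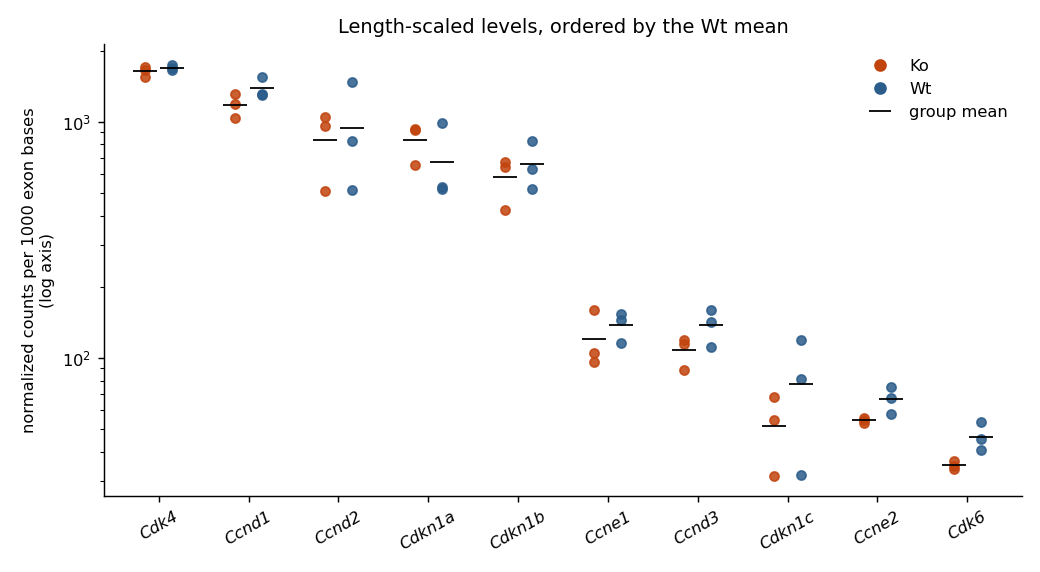
Length-scaled level of each G1 gene (normalized counts per 1000 exon bases, log axis), Ko in orange to the left of Wt in blue, with 1 point per library and a bar at the group mean. The 5 genes from Cdk4 to Cdkn1b lie at 421 or more in every library and the other 5 at 160 or less.

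Between the genotypes, 9 of the 10 genes had a lower mean log2 level in Ko, against 51.0% of all genes, and 1, Cdkn1a, a higher one. The amounts were small and did not pass the test. No member had an adjusted p under 0.05 in limma (Benjamini-Hochberg over 13671 genes), where 0 genes in the whole table, a background of 0.0%, were called. At an unadjusted p under 0.05 limma gave 1 member, Cdk6, against 5.55% of all genes, and edgeR the same 1, against 5.57%. With the replicate block limma gave 3 at that level (Ccnd1, Ccnd3 and Cdk6), against 9.53% of all genes, and with the code series term the same 3, against 11.3%, none of them called after adjustment. After adjustment, edgeR and DESeq2 without a further term called 0 members, against 0.0% and 0.505% of all genes. With the replicate block DESeq2 called 0 members, against 1.24% of all genes, and with the code series term it called 1, Ccnd3, against 2.22%. The median log2 difference of the 10 members was −0.23, beside 0.00 over all genes tested, and the pair medians were −0.24, −0.31 and −0.13. Ko and Wt libraries did not overlap for 2 members, Cdk6 and Ccne2, both lower in Ko, against 5.87% of all genes. In all 3 pairs 5 members lay lower in Ko (Ccnd1, Ccnd3, Ccne2, Cdk6 and Cdkn1c), against 17.3% of all genes, and 0 lay higher, against 15.3%. With libraries 1 and 2 paired the other way, Ccnd1 would leave this group, at 6171 in Ko library 1 against 6091 in Wt library 2. Cdkn1c is in it by a pair 3 difference of only −0.01, at 51 reads in Ko and 50 in Wt. Without Ko library 3, 7 members lay below 0 and 3 above, with a median of −0.15 and 0 called by limma. The proliferation markers Mki67, Top2a, Pcna and Cdk1 had summed levels of 18261, 19352 and 25125 normalized counts in Ko libraries 1 to 3, against 23766, 23162 and 27417 in Wt. Each Ko sum was below its same-numbered Wt sum, while the third Ko library lay above Wt libraries 1 and 2, so the sums overlapped. Taken singly, Mki67 and Cdk1 overlapped as well. For Top2a and Pcna every Ko library lay below every Wt library, an order held by 5.87% of all genes. Top2a had 6929, 7423 and 8119 normalized counts in Ko libraries 1 to 3, against 9104, 8734 and 9236 in Wt. Pcna had 1744, 1950 and 1885 in Ko, against 2359, 2404 and 2249 in Wt. The part of these markers in the members' differences was not tested. In bulk RNA, fewer cycling cells and less RNA per cell cannot be told apart.

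**Figure D2:**
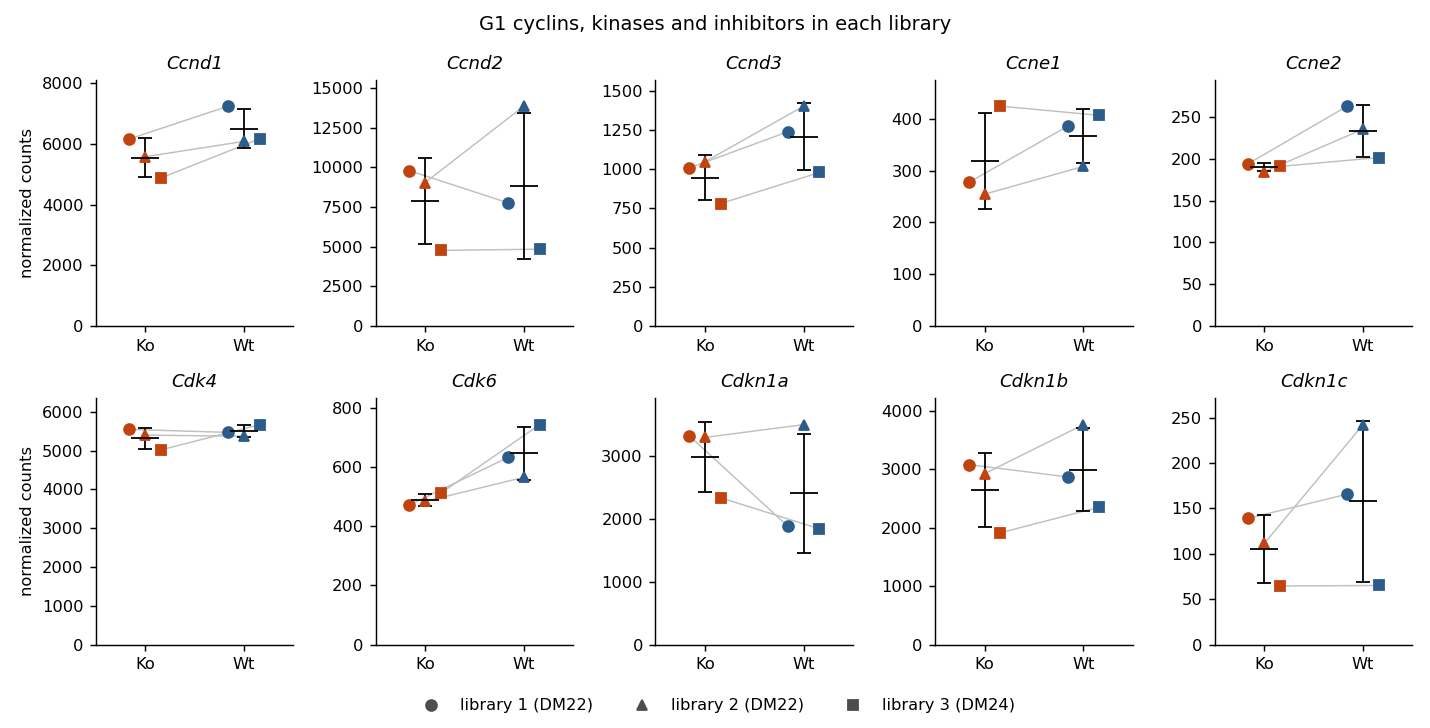
Normalized counts of each G1 gene in every library, Ko left of Wt, with marker shapes for libraries 1, 2 and 3, grey lines joining same-numbered libraries and black bars for the mean ± SD of 3 libraries. The Ko and Wt points do not overlap for Ccne2 and Cdk6 and overlap for the other 8.

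Ccnd1 (ENSMUSG00000070348.5, chromosome 7, 144929931 to 144939925, minus strand, GRCm38), the D-type cyclin most often tied to growth factor signals, had 6171, 5584 and 4887 normalized counts in Ko libraries 1 to 3, against 7253, 6091 and 6177 in Wt. Each Ko library lay under its same-numbered Wt library, while the highest Ko library exceeded the lowest Wt library, so the groups overlapped. The means were 5547 ± 643 in Ko and 6507 ± 648 in Wt (SD, n = 3 each). The log2 difference was −0.23 ± 0.12 (SE), with a 95% interval from −0.51 to 0.05 and a limma adjusted p of 0.925. It was −0.14 without Ko library 3 and −0.15 without Wt library 1. Ccnd1 shares 1100 exon bases with the opposite-strand gene LTO1, whose reads cannot be told apart from its own without strand information.

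Ccnd2 (ENSMUSG00000000184.12, chromosome 6, 127125162 to 127152193, minus strand) varied far more. It had 9795, 9036 and 4766 normalized counts in Ko libraries 1 to 3, against 7763, 13859 and 4842 in Wt. The second Wt library was the highest of all, and both DM24 libraries were low whatever their genotype. Its log2 difference was −0.10 ± 0.44 (SE), with a 95% interval from −1.18 to 0.98, and the pairs gave 0.34, −0.62 and −0.02. The sign turned to 0.29 without Wt library 2 and to 0.23 without Ko library 3, so these libraries do not fix a direction for Ccnd2.

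Ccnd3 (ENSMUSG00000034165.16, chromosome 17, 47505051 to 47599691, plus strand), the D-type cyclin with the lowest level here, had 1006, 1045 and 780 normalized counts in Ko libraries 1 to 3, against 1237, 1401 and 978 in Wt. Within each series of codes every Ko library lay below every Wt library, and across the series they overlapped. The pairs differed by −0.30, −0.42 and −0.33 on the log2 scale, the most even set of the 5 members lower in all pairs, around a log2 difference of −0.35 ± 0.17 (SE), which was −0.22 without Ko library 3 and −0.23 without Wt library 2 in limma. With the code series as a term DESeq2 called Ccnd3 lower (log2 difference −0.35, adjusted p = 0.0392), the single member called for genotype in the fits on all 6 libraries, against 1.46% of all genes called lower there. In the same design limma gave an adjusted p of 0.222 and edgeR 0.22, and DESeq2 with the replicate block gave 0.271. Without strand information, reads in 361 exon bases shared with the antisense gene Bysl, and reads matching a pseudogene that GENCODE names Ccnd3-ps (96.254% identity over 881 bases), could be counted for either.

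Ko and Wt libraries overlapped in the Ccnd1 and Ccnd2 shares of the D-type cyclins. Ccnd1 held 53.1%, 52.3% and 63.5% of the length-scaled D-type cyclin counts in Ko libraries 1 to 3, against 61.5%, 44.2% and 67.7% in Wt. The means were 56.3% ± 6.25 in Ko and 57.8% ± 12.2 in Wt (SD, n = 3 each), a difference of −1.44 percentage points (exact permutation test, two-sided, p = 0.9, with 0.1 the smallest p that 3 against 3 allows). Both DM24 libraries had the highest Ccnd1 share of their group. Ccnd2 held 42.2%, 42.4% and 31.0% in Ko, against 32.9%, 50.3% and 26.6% in Wt, and took nearly all of what Ccnd1 did not. Ccnd3 held 4.65%, 5.26% and 5.44% in Ko, against 5.63%, 5.46% and 5.75% in Wt, so its Ko libraries lay below its Wt libraries by a narrow gap (−0.494 percentage points; exact permutation test, two-sided, p = 0.1, and 0.3 adjusted over the 3 shares). Without length scaling the Ccnd3 shares overlapped (exact permutation p = 0.3), and with the longest transcript as the length they overlapped too (exact permutation p = 0.2).

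**Figure D3:**
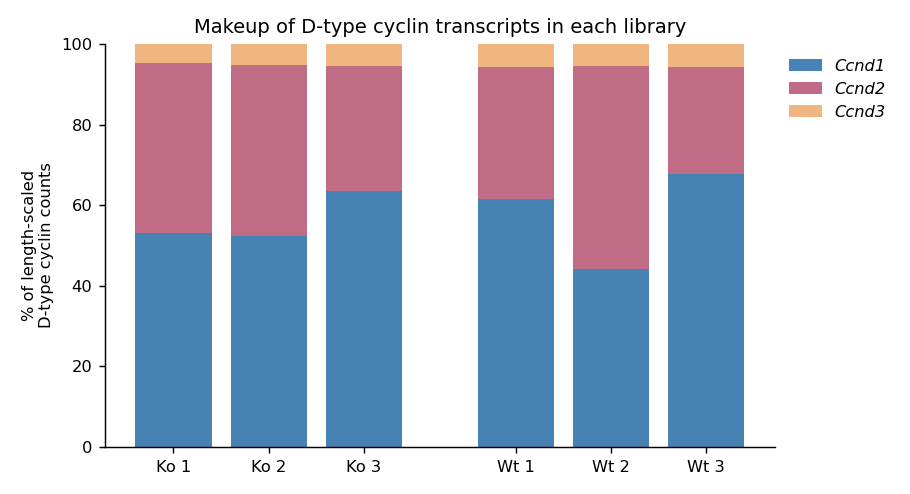
Stacked bars of the percent of length-scaled D-type cyclin counts held by Ccnd1, Ccnd2 and Ccnd3, Ko libraries 1 to 3 left and Wt libraries 1 to 3 right. Ccnd1 ranges from 52.3% to 63.5% in Ko and from 44.2% to 67.7% in Wt.

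The E-type cyclins were scarce and differed from each other across libraries. Ccne1 (ENSMUSG00000002068.16, chromosome 7, 38097984 to 38107534, minus strand) had 277, 255 and 425 normalized counts in Ko libraries 1 to 3, against 386, 308 and 407 in Wt. In the DM22 libraries both Ko values lay below both Wt values, and in the DM24 libraries the Ko value was the higher. The log2 difference was −0.23 ± 0.22 (SE), with pairs at −0.47, −0.27 and 0.06, and leaving out 1 library moved it between −0.09 (without Ko library 2) and −0.45 (without Ko library 3) in limma. Ccne2 (ENSMUSG00000028212.16, chromosome 4, 11191351 to 11204779, plus strand) had 194, 185 and 191 normalized counts in Ko libraries 1 to 3, against 263, 236 and 202 in Wt. All Ko libraries lay below all Wt libraries, with a narrow gap at the third Wt library. The means were 190 ± 4.94 in Ko and 233 ± 30.8 in Wt (SD, n = 3 each), a log2 difference of −0.29 ± 0.14 (SE) with a 95% interval from −0.63 to 0.05 (limma adjusted p = 0.925). Ccne2 shares 609 exon bases with the antisense gene Ints8.

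Of the kinases, Cdk4 (ENSMUSG00000006728.12, chromosome 10, 127063534 to 127067920, plus strand), the main partner of D-type cyclins in many tissues, had 5544, 5398 and 5017 normalized counts in Ko libraries 1 to 3, against 5468, 5369 and 5668 in Wt. It was the steadiest member, with all 6 libraries within 0.18 on the log2 scale. Its log2 difference was −0.05 ± 0.07 (SE), and the 95% interval from −0.22 to 0.12 was the narrowest of the 10. Its sign turned under quantile normalization (0.0032) and in the DM22 libraries alone (0.01). Cdk4 shares 641 exon bases with the antisense gene Tspan31.

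Cdk6 (ENSMUSG00000040274.11, chromosome 5, 3341485 to 3531008, plus strand), the other D-cyclin kinase, had 472, 484 and 512 normalized counts in Ko libraries 1 to 3, against 633, 566 and 744 in Wt. The Ko libraries lay close together and all below the Wt libraries. The means were 489 ± 20.7 in Ko and 648 ± 89.9 in Wt (SD, n = 3 each), a log2 difference of −0.40 ± 0.12 (SE), with pairs at −0.42, −0.23 and −0.54. The 95% interval, from −0.68 to −0.11, was the only one of the 10 that did not include 0 before adjustment for the genes tested. The adjusted p was 0.75 in limma, 0.357 in DESeq2 and 0.787 in edgeR without a term, 0.453 in DESeq2 with the replicate block and 0.0743 in DESeq2 with the code series term. Leaving out each library in turn gave differences between −0.49 and −0.29 in limma, none of them called.

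The inhibitor Cdkn1a (ENSMUSG00000023067.14, chromosome 17, 29090976 to 29100727, plus strand), which encodes p21, was the member with a higher mean in Ko. It had 3317, 3287 and 2329 normalized counts in Ko libraries 1 to 3, against 1879, 3490 and 1836 in Wt. The second Wt library was above all Ko libraries and the other 2 Wt libraries were below all of them. The means were 2978 ± 562 in Ko and 2402 ± 943 in Wt (SD, n = 3 each), a log2 difference of 0.36 ± 0.28 (SE) with a 95% interval from −0.33 to 1.05 (limma adjusted p = 0.986). The pairs gave 0.82, −0.09 and 0.34. Without Wt library 2 the difference was 0.66 in limma (adjusted p = 0.515) and 0.68 in DESeq2, which called it (adjusted p = 0.0349), against 0.79% of all genes called higher in that fit. Without Wt library 3 it was 0.20 in limma and 0.16 in DESeq2, and without Wt library 1 it was 0.22 and 0.16. Leaving out any library other than Wt library 2 gave adjusted p-values of 0.738 or more in both tools.

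Cdkn1b (ENSMUSG00000003031.14, chromosome 6, 134920401 to 134925513, plus strand), which encodes p27, had 3082, 2927 and 1914 normalized counts in Ko libraries 1 to 3, against 2873, 3768 and 2353 in Wt. The groups overlapped and the pairs did not share a sign, at 0.10, −0.36 and −0.30. Its log2 difference was −0.19 ± 0.24 (SE), and without Ko library 3 it was 0.03. Cdkn1c (ENSMUSG00000037664.13, chromosome 7, 143458339 to 143461050, minus strand), the imprinted gene for p57, was the least abundant inhibitor, with 139, 111 and 64.5 normalized counts in Ko libraries 1 to 3, against 166, 242 and 65.0 in Wt. The DM24 pair was nearly equal, at 51 and 50 reads, and pair 2 accounted for most of the log2 difference of −0.46 ± 0.54 (SE), with pairs at −0.25, −1.12 and −0.01. Leaving out 1 library moved it between −0.05 (without Wt library 2) and −0.995 (without Wt library 3) in limma. Reads in 625 of its 2039 exon bases could also come from the antisense gene Gm44732. Its 95% interval, from −1.76 to 0.84, was the widest of the 10.

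**Figure D4:**
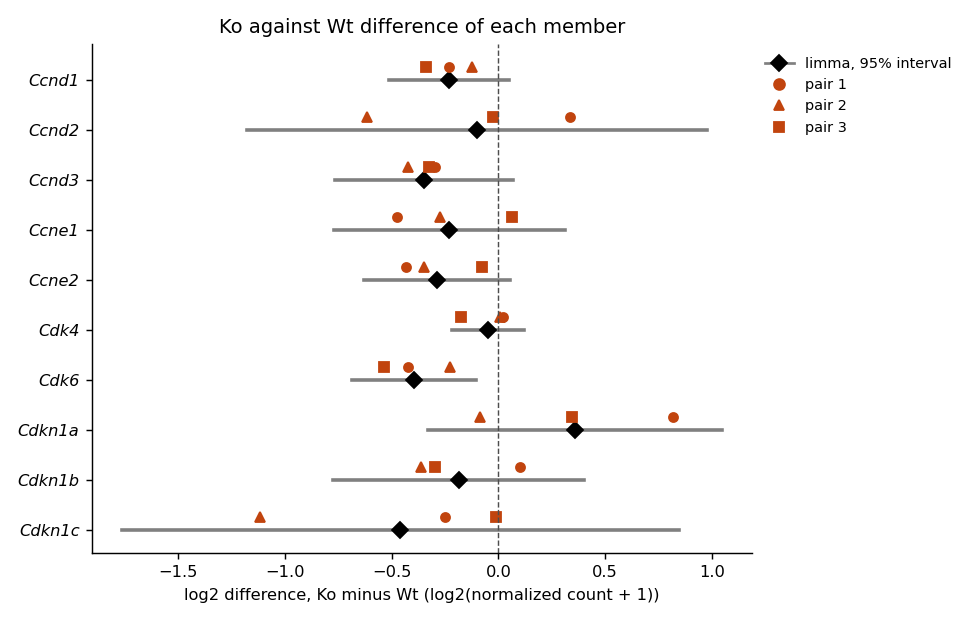
Log2 difference of each G1 gene, Ko minus Wt, on the log2(normalized count + 1) scale: black diamonds and grey lines are the limma estimate and its unadjusted 95% interval, orange symbols the 3 same-numbered pairs. Intervals run from −0.22 to 0.12 for Cdk4 to −1.76 to 0.84 for Cdkn1c, and that of Cdk6 lies below 0.

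For several members the 2 series of sample codes stood further apart than Ko and Wt did. In a limma fit with both factors, 3 of the 10 were called lower in the DM24 libraries (Ccnd3, Cdkn1b and Cdkn1c), against 4.07% of all genes, and 0 higher, against 2.68%. Cdkn1c had 64.5 (Ko) and 65.0 (Wt) normalized counts in DM24, against 111 to 242 in DM22, a log2 difference of −1.27 ± 0.25 (SE, adjusted p = 0.0434, limma). Cdkn1b had 1914 (Ko) and 2353 (Wt) in DM24, against 2873 to 3768 in DM22, a log2 difference of −0.57 ± 0.12 (SE, adjusted p = 0.0477, limma), and Ccnd3 differed by −0.41 ± 0.08 (SE, adjusted p = 0.0388, limma). Ccnd2 had a log2 difference of −1.04 ± 0.23 (SE) and did not pass (adjusted p = 0.0563, limma). Ccne1 had one of 0.46 ± 0.15 (SE), with both DM24 libraries above all DM22 libraries (adjusted p = 0.117, limma). The DM24 and DM22 libraries did not overlap for 5 members, against 39.2% of all genes. For 6 members the series difference was larger in size than the genotype difference. The share of all genes with this order was not counted, so it cannot be read as particular to the members. In each group the 6 suprabasal markers together summed highest in the DM24 library. The 6 fibroblast markers summed to 1612 (Ko) and 3237 (Wt) normalized counts in DM24 and to between 5402 and 9427 in DM22, most of it Dcn. Other fibroblast markers ran the opposite way, with Col1a1 at 154 (Ko) and 354 (Wt) in DM24 against 29.7 to 82.4 in DM22, and Col1a2 and Col3a1 likewise highest in DM24. The part of these markers in these differences was not tested.

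**Figure D5:**
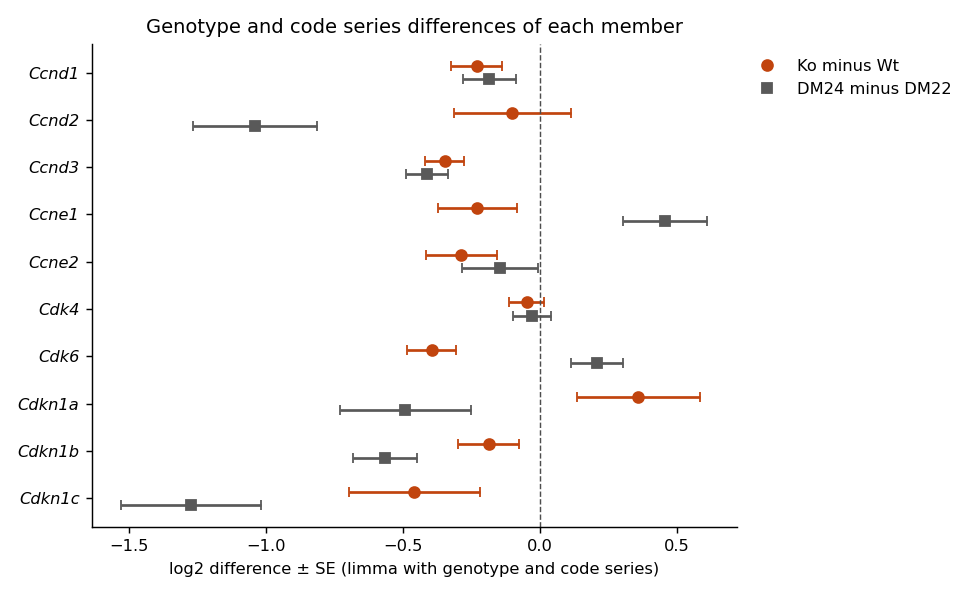
Log2 difference ± SE of each G1 gene from a limma fit with genotype and code series: orange circles are Ko minus Wt and grey squares DM24 minus DM22. The series difference of Cdkn1c is −1.27 and of Ccnd2 −1.04, while the genotype differences lie between −0.46 and 0.36.

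Whether the Ko difference itself differed between the series was tested with a product term. Limma called 0 of the 10 members and 0 of all genes, 0.0% (748 genes, 5.47%, at an unadjusted p under 0.05), edgeR called 0 genes and DESeq2 36 genes, 0.263%, none of them a member. The smallest limma adjusted p of a member was 0.867, for Ccne1 and Cdk4, with product terms of 0.44 ± 0.27 and −0.19 ± 0.12 (SE). With 1 library of each genotype in DM24, the spread in this test comes from the DM22 libraries alone.

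Of the surrounding G1/S network, which comprises the retinoblastoma family, E2F factors, INK4 inhibitors, Cdk2 and ubiquitin ligase parts, all 35 listed genes were tested and 0 were called by limma, edgeR or DESeq2, with or without the block or the series term. Their median log2 difference was −0.11, beside 0.00 over all genes tested, with pair medians of −0.15, −0.12 and −0.12, and 27 of 35 lay below 0, against 51.0% of all genes. Ko and Wt libraries did not overlap for 7 of them, 6 lower and 1 higher in Ko, against 5.87% and 5.08% of all genes. The largest difference among those with a mean of at least 100 was that of Mybl2, an E2F target whose product joins the MuvB complex. Mybl2 had 440, 390 and 554 normalized counts in Ko libraries 1 to 3, against 661, 512 and 747 in Wt. Its log2 difference was −0.47 ± 0.19 (SE, limma adjusted p = 0.885). E2f1, the best known activator E2F, had 635, 556 and 551 normalized counts in Ko, against 721, 850 and 704 in Wt, a log2 difference of −0.38 ± 0.11 (SE, limma adjusted p = 0.733). Ccna2, the cyclin of S and G2 phase, had 1335, 1452 and 2048 in Ko, against 2182, 1891 and 2125 in Wt, a log2 difference of −0.38 ± 0.17 (SE, limma adjusted p = 0.909). The INK4 inhibitor Cdkn2c, named after its values were seen, had 355, 358 and 325 in Ko, against 425, 478 and 432 in Wt, a log2 difference of −0.36 ± 0.10 (SE, limma adjusted p = 0.722).

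Because Cdkn1a is a classical target of p53, other p53 targets were read beside it. Of 18 listed, 17 were tested, with a median log2 difference of −0.03, 10 below 0, against 51.0% of all genes, and 7 above. Limma called 0 of them, against 0.0% of all genes. DESeq2 called 1 lower, Plk2, a polo-like kinase gene, once pairs or series were modelled, against 0.819% and 1.46% of all genes. The DESeq2 adjusted p of Plk2 was 1.7e-12 under pairing and 1.2e-15 under the series term. Plk2 had 3632, 3218 and 1926 normalized counts in Ko libraries 1 to 3, against 6249, 5841 and 3862 in Wt, so it was lower in Ko while Cdkn1a had the higher Ko mean. By limma Plk2 did not pass in the same designs (adjusted p = 0.123 under pairing, 0.0681 under the series term). Without a term its log2 difference was −0.88 ± 0.29 (SE), with an adjusted p of 0.817 in limma and 0.181 in DESeq2. Of the 8 Hedgehog targets tested besides Ccnd1 and Ccnd2, 7 lay below 0, against 51.0% of all genes, with a median of −0.24. Limma called 0, and DESeq2 with the block called 2 lower, Spry1 and Mycn, against 0.819% of all genes. Spry1, a feedback inhibitor of receptor tyrosine kinase signalling, had 358, 307 and 260 normalized counts in Ko, against 764, 469 and 391 in Wt, a log2 difference of −0.76 ± 0.27 (SE; DESeq2 adjusted p = 0.0199 with the block). Mycn, the N-MYC gene, had a log2 difference of −0.64 ± 0.35 (SE; DESeq2 adjusted p = 0.00222 in the paired fit, 0.163 under the series term).

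Ccnd1, Ccnd2 and Cdkn1a were matched to the genes with the closest profile, by the root-mean-square difference of centred log2 values over the 6 libraries, among 11043 genes. For Ccnd1 these were Osbpl1a (0.033), Idh1 (0.043) and D4Bwg0951e (0.047). For Ccnd2 they were Ankrd6 (0.057), Gata3 (0.072) and Peli2 (0.082). Gata3, an epidermal and hair follicle transcription factor, had 6962, 6364 and 3133 normalized counts in Ko libraries 1 to 3, against 5008, 8823 and 3492 in Wt, with the same high second Wt library and low DM24 libraries as Ccnd2. For Cdkn1a they were Caskin2 (0.094), Gm7694 (0.097) and Baiap2 (0.10). Ccnd1 was closer to Ccne2 (0.12) and Cdk4 (0.14) than to its paralog Ccnd2 (0.52), while Ccnd2 was closest among the members to Cdkn1c (0.27) and Cdkn1b (0.27). This distance depends on how much a gene varies as well as on its pattern. The log2 range over the 6 libraries was 0.57 for Ccnd1, 0.18 for Cdk4 and 1.54 for Ccnd2.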

How the data were processed

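The labels' protocols name the Qiagen RNeasy Plus Mini kit for total RNA and Illumina's TruSeq RNA v2 kit, which keeps no strand information, for the libraries. STAR 2.5 and DESeq2 1.18.1 were used with build mm10 (GRCm38), per the submitters' processing notes. No source used here names the counting tool, annotation or filters. The authors deposited a signal of normalized counts, 23337 genes by 6 libraries. Every column had a constant step, and 100% of its values came out whole when divided by it (tolerance 0.001 reads), which gave back the reads. A count of 0 reads allows up to 3 reads, or 2.47 to 3.90 normalized counts, which covers counting error only. No read was recorded for 5122 genes.

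The 13671 genes averaging 10 normalized counts or more were tested with limma 3.58.1 (R 4.3.3; trend, robust prior) on log2(normalized count + 1), Ko minus Wt, two-sided, with Benjamini-Hochberg adjustment at 0.05. This scale understates changes of low genes. Alternatives were DESeq2 1.42.0 and edgeR's quasi-likelihood test (4.0.16, TMM scaling) on the recovered reads, the replicate block, a code series term (DM22 or DM24 in the sample names), the DM22 libraries alone, other pseudocounts, filters and scaling, and leaving out each library. The fits were also run on simulated counts with the same dispersion for every gene, which does not show how they perform at the spread of these libraries. An exact permutation test of 3 against 3 cannot give a p below 0.1.

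Deviations from the group means correlated by 0.333, 0.327 and 0.694 between same-numbered libraries, all above 0.1, and these libraries were treated as pairs. The split between DM22 and DM24 libraries can give such values by itself, so they do not test pairs 1 and 2. Ko library 1 correlated more with Wt library 2 (0.505), and Ko library 2 with Wt library 1 by 0.260. Pairs 1 and 2 therefore rest on the labels' numbers alone. The members and gene lists were chosen with earlier results of these data known. Other genes were named by rule: genes of the G1/S network called by any fit on all libraries or else the 3 with the largest difference, up to 2 of each other list, and the 3 closest profiles to Ccnd1, Ccnd2 and Cdkn1a. Coordinates are 1-based, from GENCODE M21 (GRCm38).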

Additional observations from a re-analysis of the deposited data

How the results depend on the processing

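Limma called 0 genes with each pseudocount, filter and scaling tried, with the replicate block and with the series term, and edgeR called 0 with no term, the block or the series term. The count was 69 in DESeq2 without a term, 169 with the replicate block, 303 with the series term and 268 in the DM22 libraries alone, where limma and edgeR called 2 each. Leaving out 1 library gave 0 to 1 in limma and 24 to 235 in DESeq2 (53, 26 and 230 without Ko libraries 1 to 3, and 24, 223 and 235 without Wt libraries 1 to 3). DESeq2 called 36 genes for the product term. The cause of the gap between the tools was not tested. Of 280 alternative values of the 10 members, 267 kept their direction and side of the threshold, 2 gained a call (Ccnd3 at −0.35 with DESeq2 and the series term, Cdkn1a at 0.68 with DESeq2 without Wt library 2) and 11 turned sign, none of them called. In 15 of the 28 settings 0 genes were called in the whole table, so there only the direction of a member could change. The replicate block changed no member's call. Cdk4 turned to 0.0032 under quantile normalization and to 0.014, 0.018 and 0.022 in limma, edgeR and DESeq2 on the DM22 libraries alone. Without 1 library, Ccnd2 ran from −0.47 to 0.29 in limma and −0.45 to 0.32 in DESeq2, turning to 0.23 and 0.0993 without Ko library 3 and to 0.29 and 0.32 without Wt library 2. Cdkn1b ran from −0.35 to 0.0297 in limma and −0.32 to 0.0185 in DESeq2, turning to 0.0297 and 0.0073 without Ko library 3 and to 0.0185 in DESeq2 without Wt library 2. The Ccnd1 share difference ran from −8.23 to 3.51 points. It was −1.44 within pairs (exact test, p = 0.75). The G1/S network median ran from −0.15 (without Wt library 2) to −0.0898 (without Ko library 2). The 95% intervals given are unadjusted and belong to limma without a further term.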
